A study of Mus musculus with 15 samples.

Results

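The comparison of iron day 28 with sham covers 5 of the 15 arrays of a time course of the mouse heart after a single whole-body exposure to iron ions: 2 arrays of mice 28 days after exposure and 3 arrays of sham mice, chosen by their labels. All mice were adult male C57Bl/6NT animals of 8 to 9 months. The exposed mice received 0.15 Gy of iron ions at 1 GeV per nucleon, with a linear energy transfer of about 151 keV per µm, a dense particle track found in cosmic radiation. The sham arrays come from day 1 (2 arrays) and day 3 (1 array), and no sham array from day 28 was analysed here, so exposure and the time between day 1 or 3 and day 28 cannot be told apart in any difference given here. The other 10 arrays hold iron-exposed mice of days 1 and 3 (3 arrays each) and days 7 and 14 (2 arrays each). RNA came from left ventricular cells released with collagenase and enriched for cardiomyocytes that tolerate calcium; the submitters state that the suspension could also hold a few inflammatory or endothelial cells. The labels do not say whether each array is a separate mouse, so the p-values measure the spread between arrays, which may be technical, and they give no hour of the day for tissue collection.

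Cardiomyocytes are the contracting cells of the heart and hold most of its RNA, while fibroblasts, endothelial cells, immune cells and the epicardium that covers the surface make up much of the rest. The heart runs its own circadian clock, in which the transcription factors ARNTL (BMAL1) and CLOCK bind E-box sequences and drive the period and cryptochrome genes, CIART and DBP, and PER, CRY and CIART proteins in turn repress them. Small nucleolar RNAs (snoRNAs) are short RNAs, mostly cut from introns of other genes, that direct enzymes to chosen bases of ribosomal RNA and of the RNAs that splice: C/D box members guide methylation and H/ACA members guide pseudouridylation.

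The values are the authors' log2 signals, in which a difference of 1 is a 2-fold change, and 9968 genes with a mean above the median of all genes were tested with limma at a Benjamini-Hochberg adjusted p under 0.05. Cardiomyocyte markers were high in all arrays compared. The mean log2 signal of 12 of them was 12.03 and 12.04 in the iron day 28 arrays and 12.05 to 12.10 in the sham arrays. The highest value on any array was 13.01, so these markers had little room to be higher. They do not measure enrichment over whole heart tissue, which also holds cardiomyocytes. The sham day 3 array stood apart from both sham day 1 arrays in markers of T cell precursors, lymphocytes, epicardium and lung epithelium. The mean log2 signal of 9 thymocyte markers was 6.43 in it and 3.98 and 4.27 in the sham day 1 arrays. That of 10 epicardial markers was 7.48 against 6.73 and 6.24, and that of 14 lung epithelial markers 7.53 against 5.87 and 5.12. List counts that differ without that array are therefore given both ways; without it 2.96% of all genes were called higher and 1.83% lower. The correlation of log2 signals over the genes tested, a description in which the arrays share a platform, was 0.995 between the iron day 28 arrays, 0.987 between the sham day 1 arrays and 0.969 to 0.975 between sham day 3 and sham day 1. Sham day 3 is 1 array, so only the size of its difference from the 2 sham day 1 arrays is given. The median of that difference over all genes tested was -0.04.

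On day 28 most tested short RNAs of the nucleolus, the clock gene Arntl, the T cell genes Cd4 and Cd3e and 9 of 18 tested histone genes stood higher than in sham, while 5 of 9 clock repressors, the clock output gene Dbp and the secreted or matrix protein genes Lcn2, Postn, Col8a1 and Timp1 stood lower. In all, 199 genes, or 2.0% of those tested, passed the test, 141 (1.41%) higher and 58 (0.582%) lower. More than 2-fold differences made up 66 of the higher and 12 of the lower genes. In 45.1% of the genes tested the 2 iron arrays did not overlap the 3 sham arrays, and all 199 called genes were among them. The split between directions depended on scaling: centring each array on its median, which moved the median difference of all genes by -0.11, gave 98 higher and 160 lower genes, or 38.0% higher against 70.9%. Leaving out 1 array moved the count too, to 477 without sham day 3, 73 and 86 without sham day 1 replicates 1 and 2, and 41 and 45 without iron day 28 replicates 1 and 2.

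**Figure D1:**
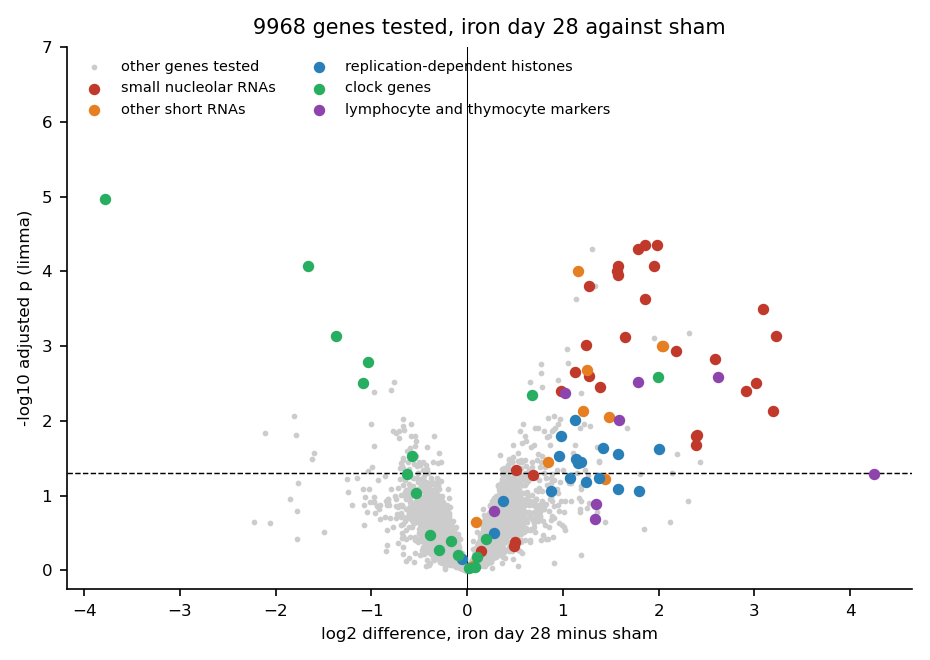
Difference in log2 signal between iron day 28 (2 arrays) and sham (3 arrays) on the horizontal axis against the -log10 of limma's adjusted p on the vertical axis, for 9968 genes; the dashed line marks an adjusted p of 0.05. Small nucleolar RNAs lie on the right up to 3.23, and the clock gene Ciart lies farthest to the left at -3.78.

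Clock genes held the gene with the smallest p of all. Ciart, a repressor of ARNTL and CLOCK, read 4.35 and 4.43 in the iron day 28 arrays and 8.35, 8.42 and 7.75 in the sham arrays. Both exposed arrays were far below all sham arrays, a 13.8-fold lower signal (log2 difference -3.78, SE 0.255, limma adjusted p = 1.09e-05). A second Ciart probe set differed by -2.61. The start of the gene is shown here because it carries 3 copies of the E-box. The E-box CACGTG, the D-box TTATGTAA bound by DBP, TEF and NFIL3, and the ROR and REV-ERB elements TAGGTCA and TGGGTCA were searched on both strands of RefSeq windows of 250 bases before to 50 after each start (GRCm38.p6). Capitals mark the motif in the sequences that follow.
Ciart: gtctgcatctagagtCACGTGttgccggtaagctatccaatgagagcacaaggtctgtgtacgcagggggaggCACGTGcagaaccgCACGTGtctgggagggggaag
Per3: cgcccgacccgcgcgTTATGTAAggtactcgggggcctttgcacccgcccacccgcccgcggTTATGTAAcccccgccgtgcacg
Per1: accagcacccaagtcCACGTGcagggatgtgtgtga
Nfil3: cgcggcgctcggaacTGACCTActaac

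The Ciart stretch is chr3:95882252-95882359 on the minus strand, and its E-boxes begin 116, 58 and 44 bases before the start. The Per3 stretch, chr4:151044801-151044885 on the minus strand, has D-boxes beginning 205 and 158 bases before the start. The Per1 stretch, chr11:69098768-69098803 on the plus strand, has its E-box 166 bases before the start. The Nfil3 stretch, chr13:52981040-52981066 on the minus strand, holds the recognition element TAGGTCA on the other strand, read here as TGACCTA, 12 bases before the start. These letters are a description, not evidence of binding. Of 20 clock genes on the array 17 had a window, with 25 windows in all. In any of their windows 5 genes held an E-box, 1 a D-box and 2 either ROR and REV-ERB element. Counted by window, 6 of the 25 held an E-box. Among all 32851 windows of that length 7.15% held the E-box, 0.938% the D-box, 2.61% TAGGTCA and 3.98% TGGGTCA.

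Of 10 clock repressors on the array 9 were tested, and 5 fell and 0 rose, against 0.582% of all genes called lower; their median difference was -0.57 beside 0.02 for all genes. Per2, a period gene that is a core part of the repressor complex, read 5.61 and 5.59 on day 28 and 6.85, 7.01 and 7.07 in sham. Per1, its close relative, read 6.16 and 6.12 against 7.07, 7.10 and 7.36. Per3, the third period gene, read 5.93 and 6.04 against 6.89, 7.31 and 7.01. In each period gene the highest exposed array lay below the lowest sham array. The differences were -1.38 (SE 0.167) for Per2, -1.04 (SE 0.140) for Per1 and -1.09 (SE 0.163) for Per3, with limma adjusted p values of 0.000741, 0.00164 and 0.00316. Cry2, a cryptochrome that binds the period proteins, fell by 0.57 (SE 0.121, limma adjusted p = 0.0294). The repressors Nr1d1 and Nr1d2, which encode the REV-ERB proteins and shut off Arntl, did not pass the test, with differences of 0.08 and -0.09. Bhlhe40 and Bhlhe41, which compete for E-boxes, differed by -0.39 and -0.53 without passing it, and Cry1 was below the filter.

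Among 9 tested activators and outputs of the clock 2 rose and 1 fell, against 1.41% and 0.582% of all genes. Arntl, the partner of CLOCK, read 7.19 and 7.14 on day 28 and 5.12, 4.80 and 5.59 in sham. Its exposed arrays were well above the sham arrays, 3.98-fold on average (difference 1.99, SE 0.289, limma adjusted p = 0.00263). The sham day 1 values of Arntl, 5.12 and 4.80, lay below the filter threshold of 5.51. That filter can favour genes that are high in the exposed arrays. Without the filter 2 of 10 activators and outputs on the array were higher and 1 lower, where 1.05% and 0.296% of all genes were. Dbp, an output that binds D-boxes, read 8.15 and 8.04 against 9.93, 9.82 and 9.51. Dbp was 3.16-fold lower with no overlap (difference -1.66, SE 0.156, limma adjusted p = 8.46e-05). Nfil3, a repressor at D-boxes, rose by 0.68 (SE 0.108, limma adjusted p = 0.00457). Clock itself, at 0.20, Rora, at 0.11, and the D-box activators Tef (-0.63, limma adjusted p = 0.0514) and Hlf (-0.30) did not pass the test. Of 15 tested genes known for daily rhythms in heart 2 fell, against 0.582% of all genes. Usp2, a deubiquitinase under clock control, fell by 0.76, and Tspan4, a tetraspanin, by 0.98. Without the sham day 3 array the genes called lower numbered 6 of 9 repressors, 2 of 9 activators and outputs (2 still higher) and 3 of 15 rhythmic genes, against 1.83% of all genes.

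Ciart, Arntl and Dbp were nearer to sham on iron days 1 and 3 and nearer to day 28 on iron days 7 and 14. Relative to the same sham arrays, Ciart differed by 0.04 on day 1, 0.46 on day 3, -2.67 on day 7 and -2.73 on day 14. Arntl differed by -0.23, -0.75, 1.85 and 2.0 on those days, and Dbp by 0.06, 0.18, -1.88 and -1.55. These comparisons share their sham arrays with that of day 28, so they are not independent of it. Set directly against day 7, Ciart was lower still on day 28 (difference -1.12, SE 0.279, limma adjusted p = 0.0454), whereas Per3 was higher (0.84, SE 0.179, limma adjusted p = 0.0276). Against day 14 none of the clock genes passed the test, where 0.321% of all genes did; the difference was -1.05 (SE 0.279) for Ciart and 0.71 (SE 0.179) for Per3. The labels give sham arrays for days 1 and 3 and none for days 7, 14 and 28, so the time point moves with this pattern and its part in the result cannot be told apart from that of exposure.

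**Figure D2:**
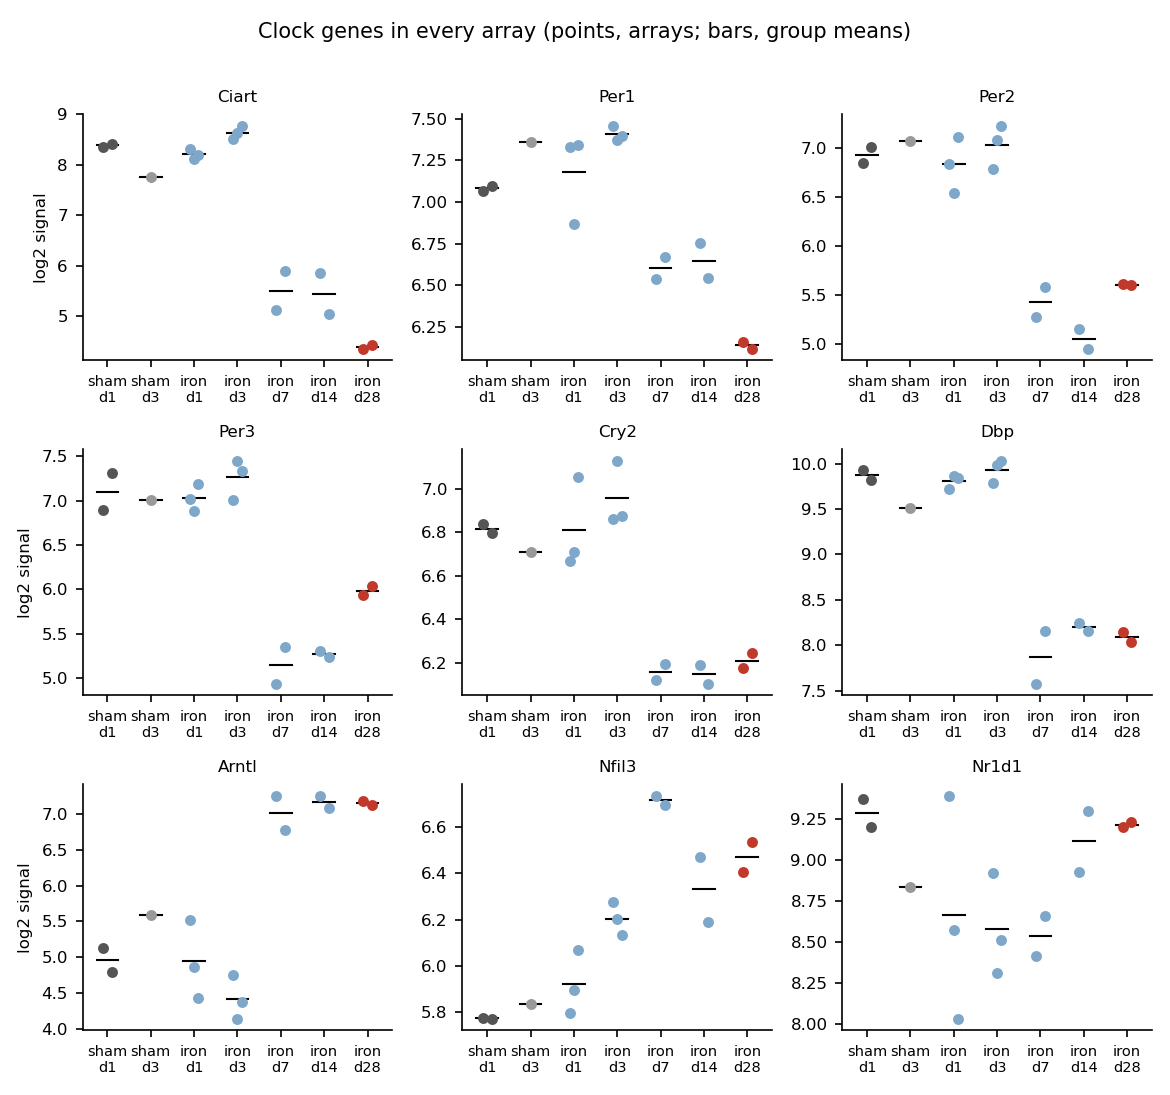
Log2 signal of 9 clock genes in every array, by group; points are arrays (2 sham day 1, 1 sham day 3, 3 each of iron days 1 and 3, 2 each of iron days 7, 14 and 28) and bars are group means. Ciart, Per1, Per2, Per3, Cry2 and Dbp are lower and Arntl and Nfil3 higher on iron day 28 (red) than in sham (grey), while Nr1d1 overlaps.

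Small nucleolar RNAs made up 24 of the 66 genes that rose more than 2-fold. The array holds 57, of which 30 were tested; 26 rose and 0 fell, against 1.41% of all genes called higher, and the median difference was 1.71 beside 0.02. The filter on low signal can favour genes that are high in the exposed arrays, so the test was also run without it: 38 of all 57 were then higher and 0 lower, with 1.05% of all genes called higher and 0.296% lower, and the median was 1.27. Centring each array left 25 of 30 called and a median of 1.61. C/D box members numbered 11 called of 13 (median 2.18), and H/ACA members together with those of the Cajal body numbered 14 of 16 (median 1.57). Without the sham day 3 array the latter numbered 15 of 16, where 2.96% of all genes were higher.

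Snora3, an H/ACA RNA, read 10.47 and 10.75 on day 28 and 7.43, 7.18 and 7.54 in sham. Snord104, a C/D box RNA, read 9.84 and 9.997 against 6.82, 6.71 and 6.95. Scarna17, a Cajal body RNA, read 9.99 and 10.09 against 7.92, 8.15 and 8.10. In all 3 the exposed arrays were close to each other and far above sham. Snora3 was 9.37-fold higher (difference 3.23, SE 0.393, limma adjusted p = 0.000741), Snord104 8.54-fold (3.09, SE 0.345, limma adjusted p = 0.00032) and Scarna17 3.95-fold (1.98, SE 0.163, limma adjusted p = 4.45e-05). Snord73b (3.20), Snord33 (3.02), Snord82 (2.92), Snord35b (2.58), Snora7a (2.40), Snora74a (2.39) and Snord57 (2.39) also rose more than 2-fold. The 4 tested members that did not pass were Snord55 (0.15), Snord14e (0.49), Snora75 (0.50) and Snora23 (0.69). Among members below the filter, Snord118, which processes ribosomal RNA, read 6.59 and 6.58 on day 28 against 3.80, 3.16 and 4.03 in sham.

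Of 28 genes whose RefSeq span holds a tested snoRNA 13 were tested; the other 15, among them the non-coding hosts Snhg3, Snhg4 and Snhg12, were not. For 14 tested snoRNAs there was such a tested gene, and 1 of the 13 genes passed the test: Gas5, a non-coding host of several C/D box RNAs, at 2.31. The other 12 differed by -0.11 to 0.19, with a median of 0.04. Their lowest limma adjusted p was 0.22, and 1 had an unadjusted p under 0.05, against 19.3% of all genes. Snora3 lies in the ribosomal protein gene Rpl27a (0.05), Snord57 in Nop56, which encodes a C/D box core protein (-0.07), Snord82 in nucleolin, Ncl (0.18), Snord73b in Rps3a1 (0.19), Snord15b in Rps3 (0.13) and Snora21 in Rpl23 (-0.01). Across the 14 short RNAs the median was 1.57, and 11 passed the test. The Gas5 probe sets disagreed, with 2.31 in the one used and 0.0023, -0.16 and -0.91 in the others. Of 15 tested genes for snoRNA-binding proteins and hosts 1, Gas5, was called (median 0.10), against 1.41% of all genes called higher. The table gives no strand, so a span does not show that the short RNA is made from that gene.

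**Figure D3:**
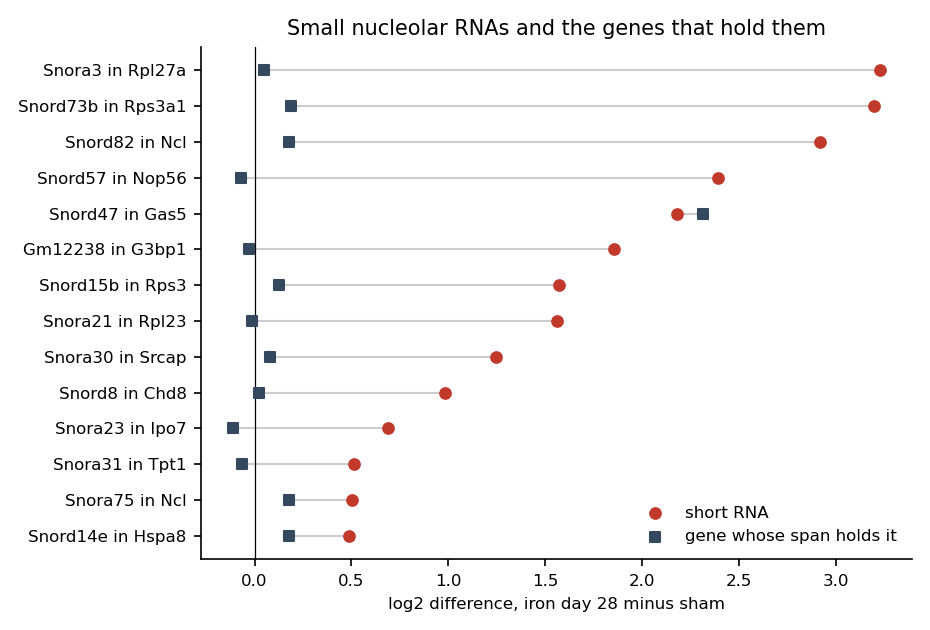
Log2 difference between iron day 28 and sham (horizontal axis) for 14 small nucleolar RNAs (red circles) and for the tested gene whose span holds each one (dark squares). The short RNAs range from 0.49 to 3.23, and the genes other than Gas5 (2.31) stay between -0.11 and 0.19.

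Other short non-coding RNAs moved in the same direction in most cases. Of 15 on the array 10 were tested and 7 rose (median 1.23), against 1.41% of all genes. Without the filter 9 of 15 were higher, where 1.05% of all genes were. Without the sham day 3 array 8 of 10 were, where 2.96% of all genes were. Rmrp, the RNA of an RNase that cuts ribosomal RNA precursors, read 10.97 and 10.99 on day 28 and 9.79, 9.70 and 9.97 in sham. Its exposed arrays lay above all sham arrays (difference 1.16, SE 0.113, limma adjusted p = 9.79e-05). Rpph1, the RNA of RNase P, rose by 1.26, Vaultrc5, a vault RNA, by 2.04, Rnu12, a minor spliceosome RNA, by 2.04, and Terc, the telomerase RNA, by 1.21. Rn7sk, an abundant RNA that restrains transcription elongation, read 12.75 and 12.77 against 12.64, 12.68 and 12.69, a difference of 0.09 that did not pass the test (limma adjusted p = 0.225). With a highest value of 13.01 on any array, Rn7sk had little room to be higher. Rny3, a Y RNA, differed by 1.44 without passing it (limma adjusted p = 0.06). MicroRNA genes were not among the calls: of 301 on the array 39 were tested and 0 passed in limma, 11 had an unadjusted p under 0.05 against 19.3% of all genes, and the median was 0.21.

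The short RNAs were already higher before day 28. The median difference of the 30 snoRNAs from the same sham arrays was -0.12 on iron day 1, 0.63 on day 3, 1.29 on day 7, 1.60 on day 14 and 1.71 on day 28, comparisons that share their sham arrays. Set directly against day 14, 0 of 30 passed in limma, with a median of 0.15. Against day 7, where 3.17% of all genes were higher, 2 did: Scarna17 (1.02, limma adjusted p = 0.0222) and Gm12238, a predicted snoRNA gene (0.79, limma adjusted p = 0.0276). Without the sham day 3 array 27 of 30 were higher than sham, where 2.96% of all genes were. The mean log2 signal of all 57 on the array was 5.53, 6.03 and 6.14 on iron day 3. It was 5.44 in sham day 3 and 5.31 and 5.18 in sham day 1. Sham day 3 is 1 array, so the difference within day 3 was not tested. For day 28, as with the clock genes, the time point and the exposure cannot be told apart.

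Genes of T cells and their thymic precursors were higher on day 28 than in sham, to differing degrees from array to array. Of 13 lymphocyte markers on the array 6 were tested and 2 rose, Cd4 and Cd3e, against 1.41% of all genes. Without the filter, which can favour genes high in the exposed arrays, 5 of the 13 were higher and 0 lower, where 1.05% and 0.296% of all genes were. Without the sham day 3 array 5 of 6 were higher, where 2.96% of all genes were. Cd4, a coreceptor of helper T cells, read 8.14 and 8.03 on day 28 and 4.89, 5.02 and 6.48 in sham. Cd3e, a chain of the T cell receptor complex, read 7.68 and 7.67 against 5.67, 5.75 and 6.86. In both genes the sham day 3 array lay between the other sham arrays and the exposed arrays. The differences were 2.62 (SE 0.380, limma adjusted p = 0.00263) for Cd4 and 1.58 (SE 0.276, limma adjusted p = 0.00981) for Cd3e. Thy1, a surface protein of T cells that fibroblasts also carry, rose by 2.20, and Rasgrp1, which links the T cell receptor to RAS, rose by 2.43. In bulk RNA, more cells of a type and more RNA per cell cannot be told apart.

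Markers of immature T cells in the thymus had the widest range. Of 9 on the array 3 were tested and 2 rose, against 1.41% of all genes. Satb1, a chromatin organiser, rose by 1.79 and Lef1, a WNT-pathway transcription factor, by 1.02, while Cd8b1, a coreceptor chain, did not pass. All 3 were higher without the sham day 3 array, where 2.96% of all genes were. Cd8b1 read 10.08 and 9.997 on day 28 and 4.10, 4.63 and 8.65 in sham, a difference of 4.25 (SE 1.02, limma adjusted p = 0.0514; 0.00014 to 0.35 over the alternatives). The other 6 were below the filter on the mean of all 15 arrays. Rag1, which cuts receptor genes for rearrangement and is a defining marker, read 8.27 and 8.11 against 2.27, 2.61 and 6.38. Dntt, which adds bases at the joins, read 8.03 and 7.87 against 2.63, 3.40 and 6.38. Both were near the bottom of the scale in sham day 1, and their sham day 3 signals were nearer to day 28 than to the other sham arrays. Without the filter 5 of the 9 were higher and 0 lower, where 1.05% and 0.296% of all genes were. Rag1 was higher by 4.44 (SE 0.961, limma adjusted p = 0.0383) and Dntt by 3.81 (SE 0.753, limma adjusted p = 0.0229).

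The mean log2 signal of the 9 thymocyte markers was 7.52 and 7.39 on day 28, 3.98 and 4.27 in sham day 1, 6.43 in sham day 3 and 3.89 to 5.83 in the other exposed arrays. That of 13 lymphocyte markers was 7.20 and 7.08 on day 28, 4.71 and 4.88 in sham day 1 and 6.51 in sham day 3. Direct comparison with the earlier exposed arrays called Cd4 against day 14 (2.32, limma adjusted p = 0.0436) and day 7 (2.51, limma adjusted p = 0.0193), and Satb1 against both (1.87 and 2.32). Other T cell genes named after their values were seen also rose: Bcl11b (0.78), a T cell fate factor, Ptprcap (1.12), which binds CD45, Tox (0.95), a factor of T cell development, Cd28 (0.85), a costimulatory receptor, and Prkcq (0.80), a kinase of T cell signalling. The part that cells of another tissue or organ have in these differences was not tested.

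Histone genes of the replication-dependent kind, which are expressed in dividing cells, followed the same arrays. Of 31 on the array 18 were tested and 9 rose (median 1.15), against 1.41% of all genes; 15 of 31 were higher without the filter, where 1.05% of all genes were, and 15 of 18 without the sham day 3 array, where 2.96% were. H2bc8 read 7.87 and 7.79 on day 28 and 5.55, 5.14 and 6.78 in sham, and H4c4 read 11.01 and 10.96 against 9.76, 9.46 and 10.36. In both the order was exposed, then sham day 3, then sham day 1. The differences were 2.01 (SE 0.408, limma adjusted p = 0.0235) and 1.13 (SE 0.196, limma adjusted p = 0.00967). H1f1 rose by 1.58, H1f5 by 1.42 and H4c14 by 0.98. Histone genes are near-identical copies, so the probe sets may not tell them apart. Of 12 tested cell cycle genes 2 rose, the cyclin Ccnb2 by 0.56 and the replication helicase subunit Mcm2 by 0.46, and 6 did without the sham day 3 array. Mki67, a marker of cycling cells, read 7.56 and 7.39 against 5.74, 5.64 and 7.22, with a difference of 1.28 that did not pass (limma adjusted p = 0.124). The thymocyte mean moved with both groups over the 5 arrays, and its part in them was not tested.

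**Figure D4:**
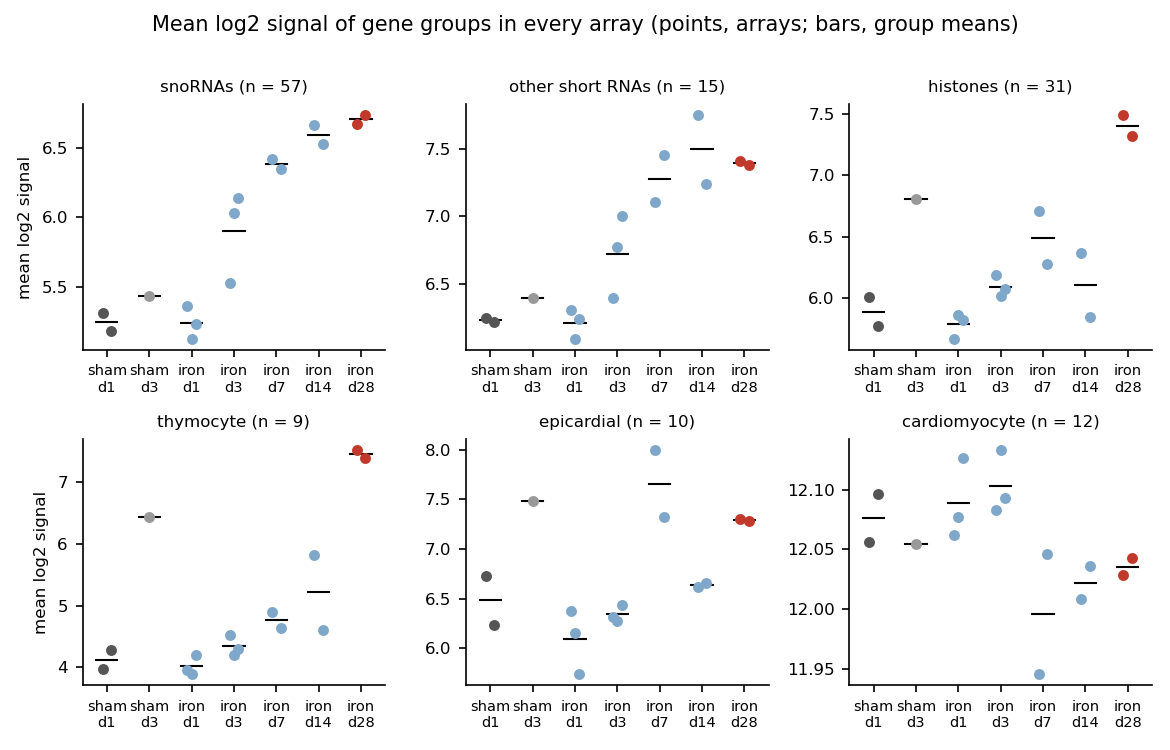
Mean log2 signal over all members on the array of 6 gene groups (members in brackets) in every array; points are arrays and bars are group means, and the vertical axes differ in range. The thymocyte and histone means are highest on iron day 28 with sham day 3 next. The snoRNA mean is higher in the arrays of iron days 3 to 28 than in every sham array. The cardiomyocyte mean stays between 11.95 and 12.13.

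The epicardium, the mesothelial cover of the heart, gave 2 calls among 8 tested markers, against 1.41% of all genes called higher, and 1 call under each of quantile normalization, median centring and no filter. Those that rose were Upk3b, a uroplakin of mesothelium, by 1.13 (SE 0.250, limma adjusted p = 0.0353) and Wt1, a defining transcription factor, by 0.80 (SE 0.192, limma adjusted p = 0.0497), with a median of 0.59. Upk3b read 9.41 and 9.45 on day 28 and 8.42, 7.82 and 8.64 in sham. Wt1 read 7.20 and 7.30 against 6.40, 6.14 and 6.8, so the exposed arrays were higher without overlap in both. The mean over all 10 markers on the array did not separate the groups, at 7.30 and 7.28 on day 28 and 6.73, 6.24 and 7.48 in sham, where sham day 3 was highest. Genes named after their values were seen included Rspo1 (1.13), a WNT amplifier, Gpc3 (1.23), a cell-surface proteoglycan, and Nkain4 (1.29). None of these 3 differed from day 7 by more than 0.28 in either direction. Of 4 tested adipocyte genes 1, the lipid droplet protein gene Plin1, rose (0.61), against 1.41% of all genes. Without the sham day 3 array 2 did, where 2.96% of all genes did.

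Among the 58 lower genes were secreted and matrix proteins. Lcn2, a secreted protein of inflammation that traps bacterial iron carriers, read 6.92 and 6.91 on day 28 and 9.19, 8.85 and 9.03 in sham. Postn, a matrix protein of activated fibroblasts, read 6.84 and 6.73 against 8.86, 8.71 and 8.20. Timp1, an inhibitor of matrix proteases, read 4.97 and 5.06 against 7.45, 6.18 and 6.28. In all 3 the exposed arrays were tightly grouped below every sham array. Lcn2 was 4.32-fold lower (difference -2.11, SE 0.395, limma adjusted p = 0.0147), Postn 3.50-fold (-1.81, SE 0.308, limma adjusted p = 0.00866), Timp1 3.07-fold (-1.62, SE 0.348, limma adjusted p = 0.0323) and Col8a1, a short-chain collagen, 3.45-fold (-1.79, SE 0.337, limma adjusted p = 0.0155). Inhba, a subunit of activin, fell by 0.77 and Masp1, a protease of the complement lectin pathway, by 1.04. In the same complement list C2, a component of the C3 convertase, rose by 1.18 (limma adjusted p = 0.0123). Thus 1 of 13 tested rose and 1 fell, where 1.41% and 0.582% of all genes did. Without the sham day 3 array 2 rose and 1 fell, where 2.96% and 1.83% did.

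The wider lists held some of these calls. Of 27 tested matrix genes 2 fell and 0 rose (median -0.26), against 0.582% of all genes called lower. Of 14 fibroblast markers 1, Postn, fell (median -0.38), against the same share. Without the sham day 3 array 2 fell, where 1.83% of all genes did. The mean log2 signal of the 16 fibroblast markers on the array was 7.03 and 6.93 on day 28 and 7.45 to 7.50 in sham. None of 14 macrophage markers passed in limma against sham. Of these, 4 had an unadjusted p under 0.05, against 19.3% of all genes, and the median was -0.39. Between day 7 and day 28, however, 5 of the 14 fell, where 0.612% of all genes did, with a median of -1.32. Postn had differed by -0.93 on day 1 and -2.00 on day 3 from the same sham arrays, and Timp1 by -0.51 and -1.37, so lower values were not particular to day 28. The part of the fibroblast share of the RNA in these differences was not tested.

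Acta1, skeletal alpha-actin and a gene of the fetal and hypertrophic program, read 9.09 and 9.05 on day 28 and 10.29, 10.35 and 9.56 in sham. It was 2.0-fold lower (difference -1.0, SE 0.228, limma adjusted p = 0.0413), and it was lower than on day 7 as well (-0.98, limma adjusted p = 0.0474). Myl1, a myosin light chain of fast muscle, fell by 1.61 (SE 0.332, limma adjusted p = 0.0268). Nppa, the atrial natriuretic peptide, read 9.03 and 8.92 against 12.08, 10.60 and 9.81 and did not pass the test (difference -1.85, limma adjusted p = 0.11). The sham values spread widely: Myl7, the atrial myosin light chain, read 10.31 in sham day 1 replicate 1, 7.57 in sham day 1 replicate 2 and 6.39 in sham day 3, beside 6.45 and 6.17 on day 28. The mean of the 10 atrial markers was 8.31, 7.03 and 6.54 in those sham arrays and 6.42 and 6.30 on day 28, and its part in the Myl1 and Nppa differences was not tested. Of 24 tested genes of the hypertrophic and fetal program 1 rose, Nfatc3, a calcium-responsive transcription factor (0.74), and 1, Acta1, fell, against 1.41% and 0.582% of all genes. Without the sham day 3 array 1 rose and 4 fell, where 2.96% and 1.83% of all genes did.

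**Figure D5:**
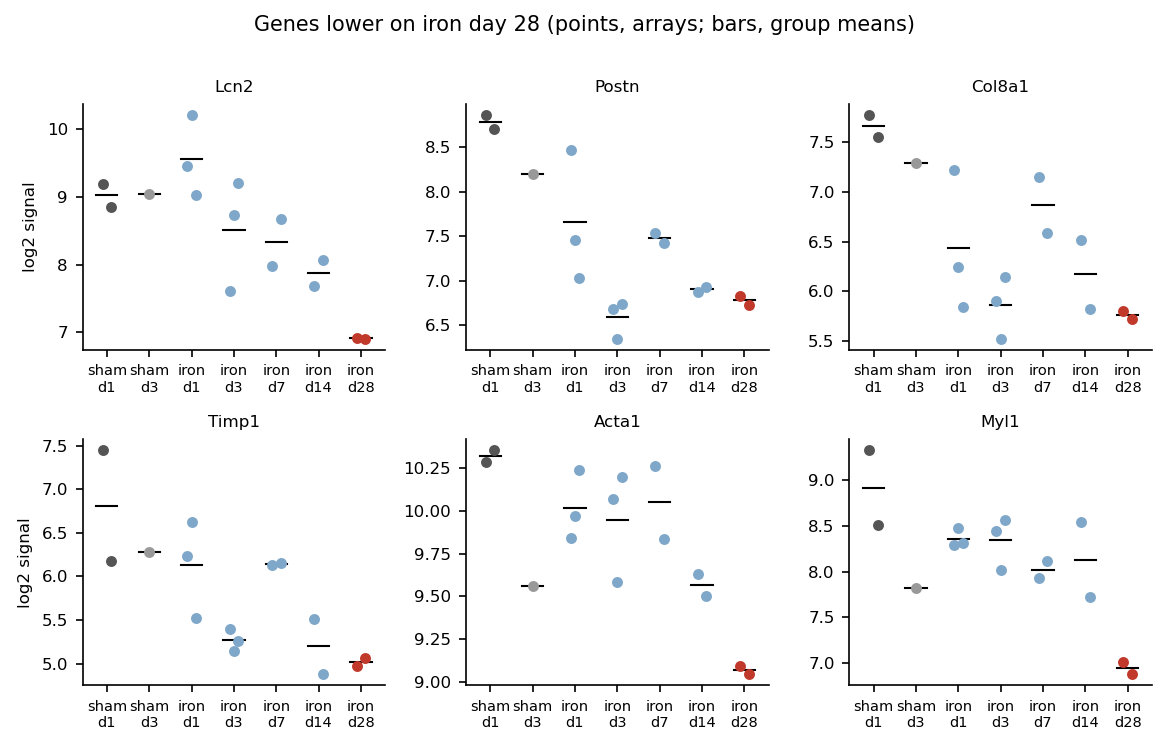
Log2 signal of 6 genes lower on iron day 28 in every array, by group; points are arrays and bars are group means. The iron day 28 arrays (red) lie below all 3 sham arrays (grey) in each panel, and Postn, Col8a1 and Timp1 are also low on iron day 3.

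The lists of contraction and energy supply genes gave no calls with all sham arrays, where 2.0% of all genes were called. Acta1 and Myl1, called above, are not in these lists. None of 12 cardiomyocyte markers passed in limma, 0 of them even before adjustment at p under 0.05; the differences ran from -0.14 to 0.05. Myh6, the main myosin heavy chain of the adult mouse heart, read 12.22 and 12.26 on day 28 and 12.22, 12.27 and 12.25 in sham. The highest value on any array was 13.01, so such signals had little room to be higher. None of 24 sarcomere, 18 calcium handling, 42 oxidative phosphorylation, 31 fatty acid and 31 glycolysis and citric acid cycle genes passed in limma. In that order 6, 4, 3, 3 and 3 of them had an unadjusted p under 0.05, against 19.3% of all genes. The medians were -0.08, 0.00, -0.03, -0.03 and -0.06. Without the sham day 3 array 2 sarcomere genes and 1 oxidative phosphorylation gene were lower, where 1.83% of all genes were. Among 19 ion channel genes 1 rose, Kcnj2, which sets the resting potential (0.72, limma adjusted p = 0.033), against 1.41% of all genes called higher.

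Damage and stress genes gave calls in some lists. Of all genes 1.41% were called higher and 0.582% lower. Of 15 tested p53 targets 1 rose, Trp53inp1, a stress-induced p53 cofactor, by 1.38 (SE 0.301, limma adjusted p = 0.0348); Mdm2, the p53 antagonist, and Ccng1, a standard p53 target, differed by -0.26 and -0.19 without passing. Trp53inp1 read 9.12 and 9.02 on day 28, 7.28 and 7.41 in sham day 1 and 8.38 in sham day 3, the same order of arrays as the T cell genes. None of 21 DNA repair, 27 immediate early, 13 interferon, 18 cytokine and NF-kB and 17 antigen presentation genes passed in limma. In that order 3, 3, 1, 2 and 7 had an unadjusted p under 0.05, against 19.3% of all genes. Their medians were 0.07, 0.37, -0.06, 0.08 and 0.28 beside 0.02 for all genes. When sham was day 1 alone, 1 DNA repair and 1 antigen presentation gene were higher, where 2.96% of all genes were. Of 24 genes of the unfolded protein response 2 rose, the chaperone partner Sdf2l1 (0.89) and Edem1 (1.36), which sends misfolded proteins to degradation; without the sham day 3 array 5 of 24 did. Edem1 read 8.59 and 8.56 on day 28 and 7.00, 6.78 and 7.86 in sham, again with sham day 3 between the other sham arrays and the exposed arrays. Of 19 apoptosis genes the caspase gene Casp2 (0.55) and the death-promoting Bcl2l11 (0.70) rose and Casp12 fell by 0.49. Igfbp3, which binds insulin-like growth factors, rose by 0.77 and Igfbp6 by 1.15 among 18 genes of that axis.

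Fnip2, a partner of folliculin in nutrient sensing, was higher on day 28 than in sham and on days 14 and 7. It read 7.71 and 7.87 on day 28 and 6.54, 6.45 and 6.49 in sham, a 2.46-fold higher signal with no overlap (difference 1.30, SE 0.111, limma adjusted p = 5.06e-05). It was also higher than on day 14 (0.81, limma adjusted p = 0.0301) and day 7 (1.26, limma adjusted p = 0.000949). Over all genes tested 32 passed between day 28 and day 14 (31 higher, 0.311%; 1 lower, 0.0100%) and 377 between day 28 and day 7 (316 higher, 61 lower; 3.78%). The 199 genes called against sham included 21 of the former, 10.6% of the 199 and 65.6% of the 32, and 54 of the latter, 27.1% of the 199 and 14.3% of the 377; these comparisons share the day 28 arrays.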

How the data were processed

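RNA of left ventricular cells was hybridised to Affymetrix mouse arrays, 1 colour, with 34760 probe sets. The deposited values are log2 signals normalized by the authors; the submitters' processing notes name MAS5, with no version, and further steps are not given in these sources. Probe sets with 1 gene symbol (21640 of 34760; 1321 had several and 11799 none) were joined to RefSeq symbols, and the probe set with the highest mean stood for each of 19937 genes. Genes with a mean log2 signal over all arrays above 5.51 (9968) went into limma 3.58.1 (R 4.3.3), fitted on group means of all 15 arrays (sham as 1 group, trended eBayes, 9 residual degrees of freedom), with Benjamini-Hochberg adjustment. Scripts in Python 3.11.15 made the tables. The number of arrays limits the precision. The fit was tested on simulated data. Named genes are the largest and the most significant differences, the clock genes, up to 6 called members of each list, and every other gene named was chosen after its values were seen. The members and lists were chosen with earlier results of these data known. Alternatives were other scalings, filters, probe set choices and fits, a replicate block, and leaving out each array.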

Additional observations from a re-analysis of the deposited data

Results flagged for a closer look

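Of the 77 named genes called against sham, 11 also differed between iron day 28 and iron day 14 and 21 between iron day 28 and iron day 7, in limma's test of the difference itself; these values have the iron day 28 arrays in common with the comparison to sham.

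Against day 14 all 11 were higher on day 28. The T cell genes Cd4, Thy1, Satb1 and Cd3e were higher by 2.32, 2.64, 1.87 and 1.59, and the histone genes H1f5, H4c4 and H4c14 by 1.96, 1.15 and 1.08. Edem1 was higher by 1.63, Fnip2 by 0.81, Casp2 by 0.79 and Igfbp3 by 0.67.

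Against day 7 the same 11 genes were higher: Cd4 by 2.51, Thy1 by 2.50, Satb1 by 2.32, Cd3e by 1.5, H1f5 by 1.58, H4c4 by 0.88, H4c14 by 0.79, Edem1 by 1.31, Fnip2 by 1.26, Casp2 by 0.68 and Igfbp3 by 0.49. Higher against day 7 and not called against day 14 were H1f1 (1.73), Scarna17 (1.02), Kcnj2 (0.86), Per3 (0.84), Lef1 (0.83), Gm12238 (0.79), Nfatc3 (0.67) and Rmrp (0.48). Ciart (-1.12) and Acta1 (-0.98) were lower than on day 7. The mean of the thymocyte markers, which was 7.52 and 7.39 on day 28, was 5.83 and 4.61 on day 14 and 4.89 and 4.64 on day 7, and its part in these differences was not tested.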

How the results depend on the processing

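All 77 named genes called against sham kept their direction under the 14 alternatives tried, and 24 of them passed the test in each alternative that tested them (a stricter filter drops some), among them Ciart, Per1, Per2, Dbp, Snora3, Snord104, Scarna17, Rmrp and Fnip2; Arntl, Cd4, Postn and H2bc8 were not among the 24. Of the 77, 26 passed without iron day 28 replicate 1 and 31 without replicate 2. The number of genes called against sham (199) became 107 with a stricter filter and 2449 with array weights, and ranged from 41 to 477 when 1 array was left out. Between days 28 and 14 the count (32) became 2 with quantile normalization, 0 with median centring (2519 at an unadjusted p under 0.05 in limma), 56 with no filter, 7 with a stricter filter, 21 with all probe sets, 270 with only the arrays compared and 446 with array weights, and ranged from 0 to 488 when 1 array was left out (in limma, 780 at an unadjusted p under 0.05 without iron day 14 replicate 1 and 1374 without iron day 28 replicate 1). Between days 28 and 7 the count (377) became 11 with only the arrays compared and 721 with array weights, and ranged from 1 to 83 when 1 array was left out. Between sham day 3 and sham day 1 it rose from 37 to 238 with no filter. The cause of these changes was not tested, except that leaving out arrays leaves fewer samples and a stricter filter fewer genes. Same-numbered arrays were not shown to be paired: their deviations correlated from -0.39 to 0.57 over 31 pairs, and 14 were above 0.1. With the replicate block, and without the sham day 3 array, which has no partner, 395 genes were called against sham, 105 against day 14 and 386 against day 7. With 2 and 3 arrays a group, the number of arrays limits what could be detected, and signals near the bottom of the scale (Rag1 and Dntt in sham day 1) have little room to be lower.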

Other observations

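Several short RNAs and histone genes below the filter on mean signal had large differences without it. Snord87 read 6.36 and 6.64 on iron day 28 and 2.94, 3.62 and 3.51 in sham, and Snora62 read 6.38 and 6.5 against 3.75, 3.36 and 3.23; without the filter they differed by 3.14 and 2.99 (limma adjusted p = 0.00294 and 0.00421). Snora33 differed by 1.61 with a limma adjusted p of 3.75e-05. The probe sets used for the long non-coding RNA genes Gas5 and Dancr were higher by 2.31 and 1.95. The other Gas5 probe sets differed by 0.0023, -0.16 and -0.91, so a rise of Gas5 as a whole is not shown. Dancr was named after its values were seen. Neither the Gas5 probe set used nor Dancr differed from day 14 by more than 0.14. Ypel2, chosen in the same way, was higher by 1.34 (SE 0.137, limma adjusted p = 0.000157).

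Lung epithelial markers were highest in the sham day 3 array, with a mean log2 signal of 7.53 over 14 markers against 5.87 and 5.12 in sham day 1 and 6.31 and 6.5 on iron day 28. Neutrophil markers were all below the filter, and without it 1 of 11, S100a9, was lower on day 28 by 0.78 on the log2 scale.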
